A study of Homo sapiens with 8 samples.

Results

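The S100 genes encode small calcium-binding proteins, and 10 of them, S100A2, S100A4, S100A6, S100A8, S100A9, S100A10, S100A11, S100A14, S100A16 and S100P, were followed here by symbol among the 48405 rows of the deposited expression tables. Each gene was found by its symbol in the gene name field, and each had a row in both tables. Polyadenylated RNA was measured in HCC4006 and HCC827, non-small cell lung cancer lines that carry activating EGFR mutations. Each line was present as a culture resistant to 3 µM gefitinib, an inhibitor of the EGFR kinase, and as a passage control culture in DMSO, the solvent. Each of the 4 groups (resistant HCC4006, DMSO HCC4006, resistant HCC827, DMSO HCC827) had 2 libraries, which are named A and B after the table columns. No allele or agent beyond the drug and the solvent was given for any group. A resistant culture is 1 adapted population of its line, and whether the drug was present at harvest was not given in the sources used here. Values are FPKM, the fragments of a transcript per kilobase of its length, divided by the total mapped, so levels can be set side by side between genes within a table. The tables of the lines may have been normalized separately, and levels were not tested across them.

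S100 proteins fold around a pair of EF-hands, the helix-loop-helix motif that holds a calcium ion, and most work as dimers that open a binding surface when calcium is bound. Inside the cell they bind annexins, myosin and other partners, and several are also released and act on the receptor AGER (RAGE) or, for the S100A8/S100A9 pair (calprotectin), on TLR4. All genes of the set but S100P lie on chromosome 1 in band 1q21, in a block that also holds the genes of the cornified envelope of stratified epithelium. In lung and other carcinomas members of the family are known as markers of epithelial differentiation, inflammation, motility or invasion.

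Facts of the whole data set were as follows. Between 17406 and 19333 rows lay above 0 in a library, and the median of these rows was 53.6 to 59.0 FPKM. Depth is unknown, since FPKM hold no counts, and no detection limit can be given. A listed 0 can be a failed estimate: among rows that averaged at least 50 FPKM in the other group of the line, 0.897% were listed at 0 in both resistant HCC4006 libraries, 6.58% in both DMSO HCC4006 libraries, 1.04% in both resistant HCC827 libraries and 6.13% in both DMSO HCC827 libraries. The libraries of a group were not equally close. Over 9215 rows above 0 in all 8 libraries with a mean of at least 50 FPKM, libraries A and B differed by more than 2-fold in 1.1% of rows in resistant HCC4006, 21% in DMSO HCC4006, 19.2% in resistant HCC827 and 7.74% in DMSO HCC827. Of the epithelial markers, EPCAM, KRT8, KRT19, CDH1 and NKX2-1 were above 0 in all 8 libraries, whereas SFTPB was listed at 0 in the HCC4006 libraries and KRT7 in all 8.

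S100A6, S100A10 and S100A11 were the backbone of S100 expression in both lines. Each lay between the 98th and the 99.9th percentile of the rows above 0 in every library, and the 3 genes together held 47.5% to 91.2% of the summed FPKM of the 10 genes. S100A6 ranked first of the 10 in 7 of the 8 libraries, and S100A9 ranked first in DMSO HCC827 library A. S100A16 followed in HCC4006, with S100A2 and S100A4 lower. S100A8, S100A9, S100A14 and S100P were the genes that some libraries listed at 0. The 10 genes summed to 13257 and 13218 FPKM in resistant HCC4006, against 16306 and 30518 FPKM in DMSO HCC4006, so both resistant sums were lower. As a share of all FPKM, resistant library A and DMSO library A of HCC4006 were both at 0.265%. In HCC827 the sums overlapped, with 16487 and 36259 FPKM in resistant cells, against 33046 and 19107 FPKM in DMSO cells.

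**Figure D1:**
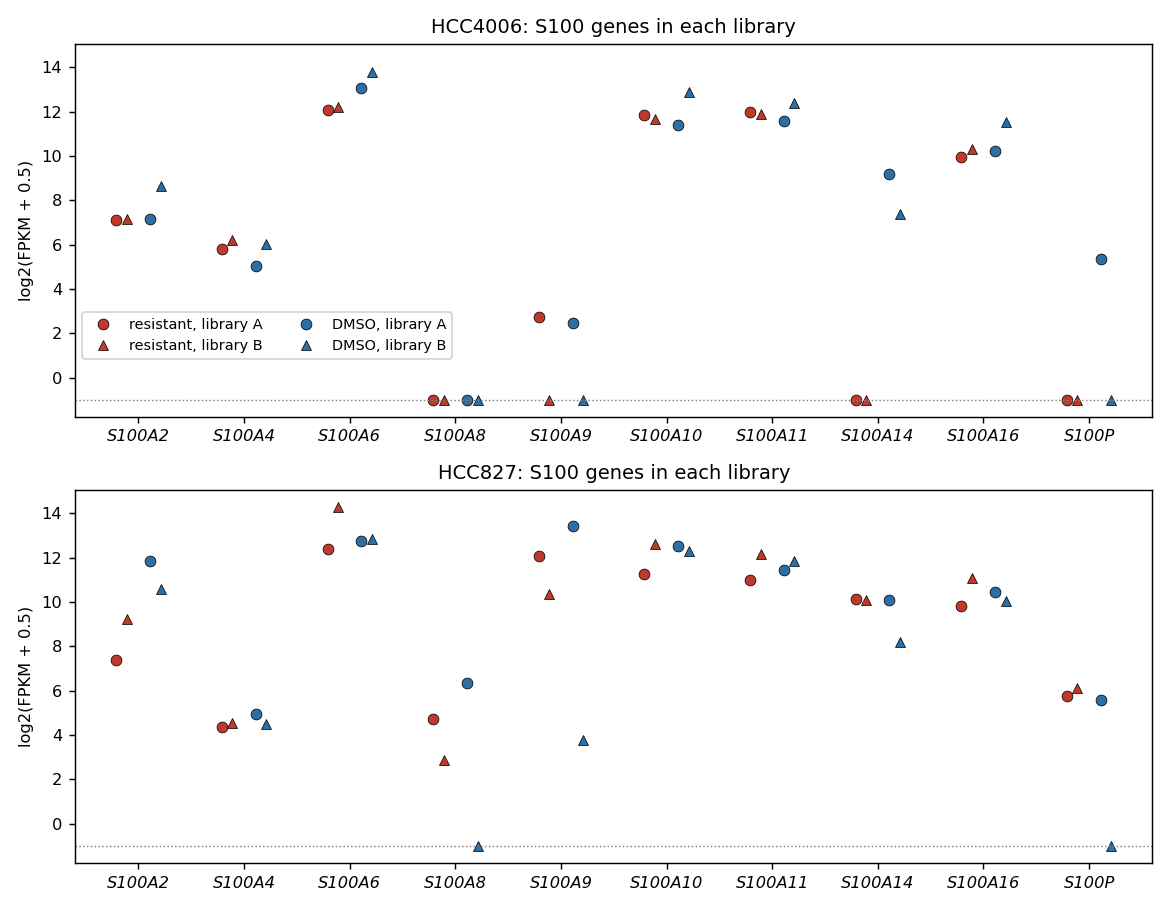
FPKM of the 10 S100 genes in each library, as log2(FPKM + 0.5), HCC4006 above and HCC827 below. Red points are resistant and blue points DMSO libraries, circles are library A and triangles library B, and the dotted line marks a listed 0. S100A14 lies on that line in both resistant HCC4006 libraries and at 166 to 1132 FPKM in the other 6.

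Changes were tested with limma on log2(FPKM + 0.5) over all rows with a mean of at least 0.5 FPKM, resistant minus DMSO, with Benjamini-Hochberg adjustment over all rows, with an adjusted p below 0.05 taken as a call. Of the 10 genes, 9 passed the filter in HCC4006 and 10 in HCC827. In HCC4006 1 gene, S100A14, was called, and it was lower in the resistant cells; 9.36% of all rows tested there were called in either direction and 2.98% were called lower. In HCC827 limma called 0 genes of the set, where 6.8% of all rows were called, and S100A2 alone had an unadjusted p below 0.05. The difference between the lines, which is the HCC827 change less the HCC4006 change, was called for S100A14 alone, against 12.1% of all rows. The median log2 change of the tested genes was −0.74 in HCC4006 and 0.37 in HCC827, and that of all rows was −0.01 and −0.04. Whether libraries A and B stem from separate cultures is not in the labels, so the p-values cover only the spread among the libraries at hand, possibly a technical one. With 2 libraries a group the intervals are wide, and an adjusted p above the threshold does not show that a level stayed the same.

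Counted without a test, both resistant libraries lay below both DMSO libraries for S100A6 and S100A14 in HCC4006, 2 of 10 genes, where 26.5% of all rows did so. The reverse order was seen for 0 of 10 genes there and for 26.6% of all rows. In HCC827 S100A2 was below in both resistant libraries, 1 of 10 genes against 24.7% of all rows. S100A14 and S100P were above in both, 2 of 10 genes against 24.3% of all rows. None of these shares stands above that of all rows.

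S100A14 encodes an S100 protein of epithelial cells whose row spans chr1:153586730-153589462 (hg19) and shares its locus with no other row. It was listed at 0 in both resistant HCC4006 libraries and measured 583 and 166 FPKM in the DMSO HCC4006 libraries. In HCC827 the same gene measured 1132 and 1107 FPKM in the resistant libraries, against 1082 and 296 FPKM in the DMSO libraries. Resistant HCC4006 was thus the only group in which S100A14 was listed at 0. The call in HCC4006 had an adjusted p of 0.00558 in limma, and no fold is given against a listed 0. Without either resistant HCC4006 library it was not called. Without a DMSO HCC4006 library, a lone DMSO value stood against listed zeros with no spread within a group, so that fit cannot weigh the call. In HCC827 the log2 change was 0.98 (95% interval −0.79 to 2.76, adjusted p = 0.517 by limma). The difference between the lines had an adjusted p of 0.00155 in limma. It stayed at 0.00223 or below in every alternative that kept all libraries and could test it. The listed zeros of resistant HCC4006 add no spread to these fits. Without a DMSO HCC4006 library the gene's own spread comes from HCC827 alone, so those fits cannot weigh the difference.

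S100A14's level can be set beside its neighbours on the chromosome and beside the epithelial markers. S100A16 and S100A13, the genes next to it, were above 0 in all 8 libraries. Of 7 tested lung epithelial markers in HCC4006, limma called 5 lower and 0 higher. Of 6 mesenchymal markers it called 4 higher and 0 lower, against 9.36% of all rows called in either direction. MUC1 of the 5 and FN1 of the 4 had a group listed at 0. Over rows above 0 in every HCC4006 library, limma called 3 of 5 epithelial and 1 of 5 mesenchymal markers, against 88 of all 16484 rows in that fit. CDH1, which encodes E-cadherin, measured 3.03 and 3.29 FPKM in resistant HCC4006, against 1518 and 945 FPKM in DMSO HCC4006. ZEB2, which encodes a repressor of epithelial genes, measured 79.4 and 78.0 FPKM in resistant HCC4006, against 1.58 and 1.36 FPKM in DMSO HCC4006. In HCC827 0 of these markers were called in either direction, against 6.8% of all rows. CDH1 measured 1804 and 1132 FPKM in resistant cells, against 1325 and 1081 FPKM in DMSO cells. Both resistant HCC827 libraries lay above both DMSO libraries for NAPSA, SFTPB, VIM and ZEB2, where 24.3% of all rows did so. They lay below for KRT8 and SPARC, against 24.7% of all rows. VIM measured 800 and 1071 FPKM in resistant HCC827, against 155 and 341 FPKM in DMSO HCC827. KRT8 measured 1175 and 2743 FPKM, against 5187 and 5157 FPKM. MUC1, whose row also names KRTCAP2, measured 2387 and 2250 FPKM in DMSO HCC4006 and was listed at 0 in the resistant HCC4006 and all HCC827 libraries. The summed epithelial list, MUC1 included, was 1802 and 1629 FPKM in resistant HCC4006 and 11893 and 18095 FPKM in DMSO HCC4006. The part of this shift in the S100A14 result was not tested. Fewer cells that hold a transcript and less of it per cell cannot be told apart in such bulk RNA.

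Promoter sequence is shown for S100A14, the called gene, for its neighbour S100A16, and for S100A9 and S100A2, whose levels ranged most in HCC827 among the genes above 0 in all 4 libraries. Each sequence is the 250 bases before a transcript start from RefSeq (GRCh38.p14), given 5′ to 3′ on the strand of the gene. Both strands were searched for 3 motifs: CAGGTG, the E-box bound by ZEB and SNAI repressors; TGANTCA, bound by AP-1; and TTGCNNAA, bound by C/EBP factors. The motifs share no base in these windows. Capitals mark a match of CAGGTG or its reverse complement, or in S100A2 of TGANTCA.
S100A14, chr1:153616326-153616575, minus strand: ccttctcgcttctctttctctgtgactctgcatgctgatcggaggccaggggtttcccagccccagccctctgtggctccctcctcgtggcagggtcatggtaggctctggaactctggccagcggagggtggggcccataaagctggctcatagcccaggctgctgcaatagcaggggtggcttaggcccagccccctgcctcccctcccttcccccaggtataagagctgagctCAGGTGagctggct
S100A16, chr1:153613138-153613387, minus strand: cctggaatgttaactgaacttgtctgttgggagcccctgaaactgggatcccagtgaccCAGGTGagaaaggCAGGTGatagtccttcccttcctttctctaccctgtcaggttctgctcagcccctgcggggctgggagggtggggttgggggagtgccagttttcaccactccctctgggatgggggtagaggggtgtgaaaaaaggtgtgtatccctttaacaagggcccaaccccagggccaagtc
S100A9, chr1:153357604-153357853, plus strand: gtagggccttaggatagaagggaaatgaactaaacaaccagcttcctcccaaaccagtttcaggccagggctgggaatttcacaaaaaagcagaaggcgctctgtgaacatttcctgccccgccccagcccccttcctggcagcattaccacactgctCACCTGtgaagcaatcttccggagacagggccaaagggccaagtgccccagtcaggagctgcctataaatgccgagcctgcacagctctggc
S100A2, chr1:153565845-153566094, minus strand: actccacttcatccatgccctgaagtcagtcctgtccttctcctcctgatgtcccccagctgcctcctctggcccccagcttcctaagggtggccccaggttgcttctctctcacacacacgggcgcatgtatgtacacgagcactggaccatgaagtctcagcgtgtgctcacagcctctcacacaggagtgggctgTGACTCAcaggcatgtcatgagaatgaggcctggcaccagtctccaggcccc

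All 10 genes matched a promoter entry, with 14 windows in all, some of which overlap. CAGGTG was present in at least 1 window of 7 of the 10 genes (S100A2 in its other window, S100A4, S100A8, S100A9, S100A14, S100A16 and S100P), against 17.5% of 35116 promoter windows and 20.6% of 27305 genes. Counted from −1 for the last base before the start, the first base of the match in S100A14 is at −14. TGANTCA was found in S100A2 alone, with its first base at −52, against 6.57% of windows. TTGCNNAA was found in S100A11 alone, against 9.05% of windows. Among the 7 genes with CAGGTG, S100A14 alone was called in HCC4006, where it was lower in resistant cells. The fitted changes there were negative for S100A2, S100A14, S100A16 and S100P, positive for S100A4 and S100A9, and S100A8 was not tested. S100A16 overlapped between groups in both lines, and S100A9 was at or near 0 in all HCC4006 libraries. The part of the motif in any change was not tested. A match is a run of letters and not a bound site.

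S100A16 encodes a widely expressed S100 protein, and it kept a high level in all groups. Its row (chr1:153579361-153585644, hg19) measured 973 and 1281 FPKM in resistant HCC4006, against 1179 and 2948 FPKM in DMSO HCC4006. In HCC827 it measured 912 and 2202 FPKM in resistant cells, against 1424 and 1074 FPKM in DMSO cells. The groups overlapped in both lines, with log2 changes of −0.74 (95% interval −2.25 to 0.77, adjusted p = 0.5 by limma) in HCC4006 and 0.20 (−1.17 to 1.56, adjusted p = 0.874) in HCC827.

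S100A2 encodes a largely nuclear S100 protein of basal epithelial cells that was first described as lost in breast tumours. It (chr1:153533583-153540366, hg19) measured 137 and 142 FPKM in resistant HCC4006, against 140 and 404 FPKM in DMSO HCC4006. The HCC827 values were 165 and 609 FPKM in resistant cells, against 3654 and 1533 FPKM in DMSO cells. DMSO HCC827 was the group with the highest levels, and both of its libraries lay above both resistant HCC827 libraries, although A and B differed 3.68-fold in the resistant group and 2.38-fold in the DMSO group. The log2 change in HCC827 was −2.90 (SE 0.79, 95% interval −4.99 to −0.80), which had an unadjusted p of 0.0172 and did not pass the adjustment (adjusted p = 0.155 by limma). In HCC4006 the log2 change was −0.77 (SE 0.59, adjusted p = 0.513 by limma), and without DMSO HCC4006 library A it was −1.53. That fit has a lone DMSO value, so it holds no spread between DMSO libraries and cannot weigh the change. The difference of the changes between the lines was −2.13 (SE 1.13, adjusted p = 0.311 by limma).

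S100A6 (calcyclin) is bound by CACYBP and annexins and is abundant in proliferating cells. Its row (chr1:153506078-153508720, hg19) measured 4355 and 4701 FPKM in resistant HCC4006, against 8623 and 14137 FPKM in DMSO HCC4006. Its HCC827 levels were 5430 and 19925 FPKM in resistant cells, against 6948 and 7388 FPKM in DMSO cells. The HCC4006 groups did not overlap, while in HCC827 resistant library A was the lowest of the line and resistant library B the highest. The log2 change in HCC4006 was −1.29 (SE 0.32, 95% interval −2.18 to −0.39), with an unadjusted p of 0.0170 and an adjusted p of 0.115 by limma, so it was not called. In HCC827 it was 0.54 (SE 0.69, adjusted p = 0.714 by limma), and the sign turned to −0.40 without resistant library B. The difference between the lines was 1.82 (SE 0.87, adjusted p = 0.263 by limma), and without resistant HCC827 library A it was 2.76. That fit leaves out the spread between the resistant HCC827 libraries. The S100A6 row overlaps a gene on the opposite strand, and the library kit does not mark strand, so reads of the pair cannot be told apart.

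S100A4, also called metastasin, binds non-muscle myosin and is known from motile cells and fibroblasts. It measured 55.5 and 72.9 FPKM in resistant HCC4006, against 32.5 and 63.9 FPKM in DMSO HCC4006. In HCC827 it measured 20.0 and 23.1 FPKM in resistant cells, against 30.7 and 22.3 FPKM in DMSO cells. The groups overlapped in both lines, and S100A4 remained far below S100A6, which lies close by on the chromosome, in all 8 libraries. Its log2 change was 0.48 (SE 0.42, adjusted p = 0.551 by limma) in HCC4006 and −0.28 (SE 0.35, adjusted p = 0.708) in HCC827. The 4 mesenchymal markers called higher in resistant HCC4006 thus stand beside an S100A4 level that did not pass the test. The row (chr1:153516088-153524245, hg19) shares its locus with S100A3, so the counting could split reads between the genes.

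S100A10 and S100A11 are the annexin-binding members: S100A10 (p11) forms a tetramer with ANXA2 that brings plasminogen and membrane channels to the cell surface, and S100A11 binds ANXA1. S100A10 (chr1:151955390-151966866, hg19) measured 3643 and 3205 FPKM in resistant HCC4006, against 2685 and 7455 FPKM in DMSO HCC4006. HCC827 gave 2446 and 6341 FPKM in resistant cells, against 5942 and 5098 FPKM in DMSO cells. The groups overlapped in both lines, with log2 changes of −0.39 (SE 0.57, adjusted p = 0.720 by limma) in HCC4006 and −0.48 (SE 0.54, adjusted p = 0.674) in HCC827.

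The S100A11 row (chr1:151967006-152020383, hg19) measured 4088 and 3816 FPKM in resistant HCC4006, against 3018 and 5343 FPKM in DMSO HCC4006. In HCC827 it measured 2039 and 4643 FPKM in resistant cells, against 2819 and 3683 FPKM in DMSO cells. Of the genes tested in both lines its changes were the closest to 0, with log2 changes of −0.02 (95% interval −1.01 to 0.97, adjusted p = 0.974 by limma) in HCC4006 and −0.07 (−1.39 to 1.26, adjusted p = 0.963) in HCC827. These intervals still allow a change of about 2-fold or more in either direction. The row shares its locus with another and overlaps an antisense gene.

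The annexin partners were as abundant as their S100 genes. ANXA2 measured 4056 and 4270 FPKM in resistant HCC4006, against 3204 and 7979 FPKM in DMSO HCC4006, and 1418 and 4845 FPKM in resistant HCC827, against 2897 and 4260 FPKM in DMSO HCC827. The ratio of S100A10 to ANXA2 was 0.898 and 0.751 in resistant HCC4006, against 0.838 and 0.934 in DMSO HCC4006. In HCC827 it was 1.73 and 1.31 in resistant cells, against 2.05 and 1.20 in DMSO cells. The ratio was therefore below 1 in every HCC4006 library and above 1 in every HCC827 library, and it overlapped between the groups within each line. ANXA1 measured 3730 and 3288 FPKM in resistant HCC4006, against 3079 and 2812 FPKM in DMSO HCC4006, and 2953 and 5156 FPKM in resistant HCC827, against 6824 and 4665 FPKM in DMSO HCC827. Neither annexin was called in either line, with limma adjusted p of 0.778 and 0.513 in HCC4006 and 0.775 and 0.566 in HCC827 for ANXA2 and ANXA1.

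**Figure D2:**
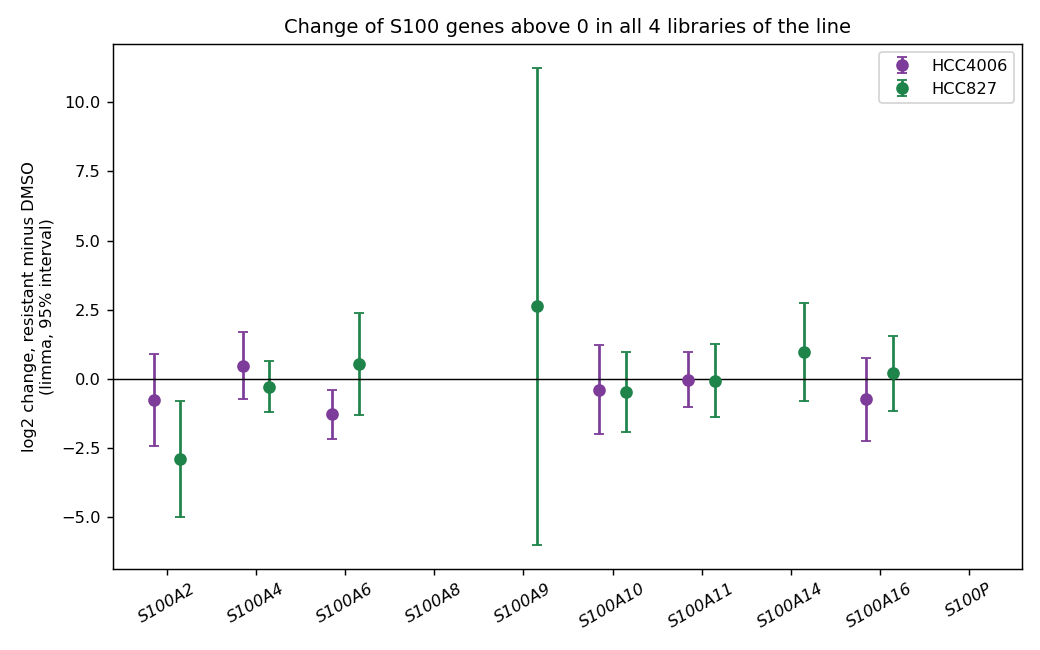
Change of each S100 gene above 0 in all 4 libraries of a line, as log2(FPKM + 0.5), resistant minus DMSO, with the 95% interval of limma; purple is HCC4006 and green HCC827. The S100A11 values lie at −0.02 and −0.07, only S100A6 in HCC4006 (−1.29) and S100A2 in HCC827 (−2.90) have intervals that leave out 0, and genes with a listed 0 are not drawn.

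S100A8 and S100A9 together form calprotectin, a metal-binding protein of neutrophils and monocytes that inflamed and squamous epithelium also makes. In HCC827 S100A9 (chr1:153330329-153333503, hg19) measured 4263 and 1331 FPKM in resistant cells, against 11016 and 13 FPKM in DMSO cells. The DMSO libraries were the highest and the lowest of the line, 846-fold apart, and the resistant libraries lay between them. In HCC4006 it measured 6.07 FPKM and a listed 0 in resistant cells, against 5.07 FPKM and a listed 0 in DMSO cells. The fitted log2 change in HCC827 was 2.63 (SE 3.26, 95% interval −6.00 to 11.25, adjusted p = 0.703 by limma), while the mean on the linear scale was lower in resistant cells, at 2797 FPKM against 5515 FPKM in DMSO cells. Without DMSO HCC827 library B the log2 change was −2.21, so that library alone set its sign. No direction can be given for S100A9 from these libraries.

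S100A8 (chr1:153362507-153363664, hg19) was far below its partner wherever it was seen. It measured 25.6 and 6.94 FPKM in resistant HCC827, against 81.7 FPKM and a listed 0 in DMSO HCC827, and it was listed at 0 in all 4 HCC4006 libraries. Its FPKM came to 0.601% and 0.521% of that of S100A9 in resistant HCC827, against 0.741% in DMSO HCC827 library A. Its order over the HCC827 libraries was the same as that of S100A9, highest in DMSO library A and lowest in DMSO library B. The fitted log2 change of 1.12 (SE 2.54, adjusted p = 0.849 by limma) had the opposite sign to the difference of the means, which were 16.3 FPKM in resistant and 40.8 FPKM in DMSO cells.

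Of 11 myeloid markers, PTPRC, CSF3R, FCGR3A and FCN1 were listed at 0 in all 8 libraries, as was S100A12, another S100 gene of neutrophils. ITGB2, an integrin chain of white blood cells, measured 269 and 83.5 FPKM in resistant HCC827, against 98.1 and 84.4 FPKM in DMSO HCC827. CSF1R, the receptor of a macrophage growth factor, measured 63.6 and 18.4 FPKM in resistant HCC827, against 34.7 and 60.8 FPKM in DMSO HCC827. Limma called 1 of 4 tested markers in HCC827, against 6.8% of all rows. It was MPO, called lower, listed at 0 in both resistant HCC827 libraries, against 5.08 and 4.31 FPKM in DMSO HCC827. The summed list was 671 and 458 FPKM in resistant HCC827, against 475 and 414 FPKM in DMSO HCC827, and its largest member was CD68, a lysosomal protein gene that measured 264 to 1122 FPKM in the 8 libraries. In HCC4006 the sum was 367 and 449 FPKM in resistant cells, against 1230 and 409 FPKM in DMSO cells. Limma called 2 of 5 tested markers there, both lower, against 9.36% of all rows. ITGB2 measured a listed 0 and 0.761 FPKM in resistant HCC4006, against 38.7 and 54.6 FPKM in DMSO HCC4006 (adjusted p = 0.0127). CSF1R measured 10.8 and 12.3 FPKM, against 66.0 and 56.6 FPKM (adjusted p = 0.0120). CSF1R was not called over rows above 0 in every HCC4006 library (0.0729). The part of myeloid cells in the S100A8 and S100A9 levels was not tested.

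S100P, named for the placenta and found in several adenocarcinomas, is the gene of the set on chromosome 4 (chr4:6694795-6698897, hg19). It was listed at 0 in both resistant HCC4006 libraries and measured 39.7 FPKM and a listed 0 in the DMSO HCC4006 libraries. The HCC827 values were 53.9 and 70.3 FPKM in resistant cells, against 47.7 FPKM and a listed 0 in DMSO cells. It was thus above 0 in both libraries of resistant HCC827 alone. The limma adjusted p was 0.509 in HCC4006 and 0.468 in HCC827, with no fold against a listed 0. Without DMSO HCC4006 library B, a lone DMSO value of 39.7 FPKM stood against listed zeros. No group then had a spread, so that fit cannot weigh a change of S100P. The nuclear protein gene S100PBP, whose product binds S100P, was called higher in both lines by limma. It measured 301 and 387 FPKM in resistant HCC4006 and 175 and 279 FPKM in resistant HCC827, and it was listed at 0 in the DMSO libraries of both lines.

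Of 11 other S100 genes, 5 (S100A7L2, S100A12, S100B, S100G and S100Z) were listed at 0 in all 8 libraries. Of the rest, limma called 0 of 3 tested in HCC4006, against 9.36% of all rows, and 0 had an unadjusted p below 0.05 there. In HCC827 it called 1 of 6, against 6.8% of all rows. S100A5 was the called gene: it was listed at 0 in both resistant HCC827 libraries, against 8.03 and 14.9 FPKM in DMSO HCC827, with an adjusted p of 0.0179 by limma, which rose to between 0.0609 and 0.180 when any 1 of the 4 libraries was left out. S100A13, which is tied to the release of growth factors that lack a signal peptide, was the only other abundant gene of the family. It measured 438 and 454 FPKM in resistant HCC4006, against 390 and 993 FPKM in DMSO HCC4006, and 339 and 1271 FPKM in resistant HCC827, against 1056 and 900 FPKM in DMSO HCC827. Its groups overlapped in both lines (adjusted p = 0.624 and 0.694 by limma). Without DMSO HCC4006 library A its log2 change in HCC4006 was −1.15, from a fit with a lone DMSO value. S100A1 shares that locus and measured 56.4 and 4.6 FPKM in resistant HCC4006, against 29.9 and 3.31 FPKM in DMSO HCC4006, and 0.717 and 1.11 FPKM in resistant HCC827, against 19.3 FPKM and a listed 0 in DMSO HCC827.

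S100A7 (psoriasin), which keratinocytes make in inflamed skin, followed the order of S100A8 and S100A9 in HCC827. It measured 26.1 FPKM and a listed 0 in resistant HCC827, against 78.1 FPKM and a listed 0 in DMSO HCC827, and was at 0 in all HCC4006 libraries. The neighbouring genes of the cornified envelope, the protein shell of stratified epithelium, were seen mainly in HCC827 too. The 31 genes found of that list stand on 27 rows, since several share a row, and SPRR2A, SPRR2B and SPRR2E share 1 of them. Of these rows, 0 were above 0 in the resistant HCC4006 libraries, against 4 and 4 in DMSO HCC4006. In HCC827 8 and 8 were above 0 in resistant cells, against 7 and 5 in DMSO cells. Limma called 0 of 6 tested rows in HCC4006, against 9.36% of all rows, with 1 at an unadjusted p below 0.05. In HCC827 it called 2 of 8 rows, both higher, against 6.8% of all rows in either direction.

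The 2 called rows were small proline-rich protein genes. The row that names SPRR2A, SPRR2B and SPRR2E measured 262 and 447 FPKM in resistant HCC827 and was listed at 0 in both DMSO HCC827 libraries. SPRR2F measured 224 and 718 FPKM in resistant HCC827 and was listed at 0 in both DMSO libraries as well. SPRR2 genes are near-identical copies, so the counting could have moved reads between them. Other members of the group did not share that order. SPRR2D overlapped, with 353 and 548 FPKM in resistant HCC827 against 749 and 75.0 FPKM in DMSO HCC827. SPRR1A and SPRR3 did not pass the test, although both resistant HCC827 libraries lay below both DMSO libraries, and SPRR3 measured 4.42 and 19.9 FPKM in resistant cells, against 128 and 37.7 FPKM in DMSO cells (adjusted p = 0.228 by limma). SPRR1B was highest in DMSO HCC827 library A, at 1197 FPKM, and lowest in resistant library A, at 59.3 FPKM. The squamous keratin gene KRT6A measured 0.0434 and 0.206 FPKM in resistant HCC827, against 49.4 and 1.12 FPKM in DMSO HCC827. The other squamous markers were low: KRT5 and KRT14 measured 1.03 and 0.918 FPKM in DMSO HCC827 library A. TP63 measured 9.64 FPKM in that library and 7.85 FPKM in resistant HCC827 library A, and DSG3 was listed at 0 in every library. Library A of DMSO HCC827 was thus the highest of the line for S100A7, S100A8, S100A9, SPRR1A, SPRR1B, SPRR3 and KRT6A, genes chosen after their values were seen; what sets it apart was not tested.

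**Figure D3:**
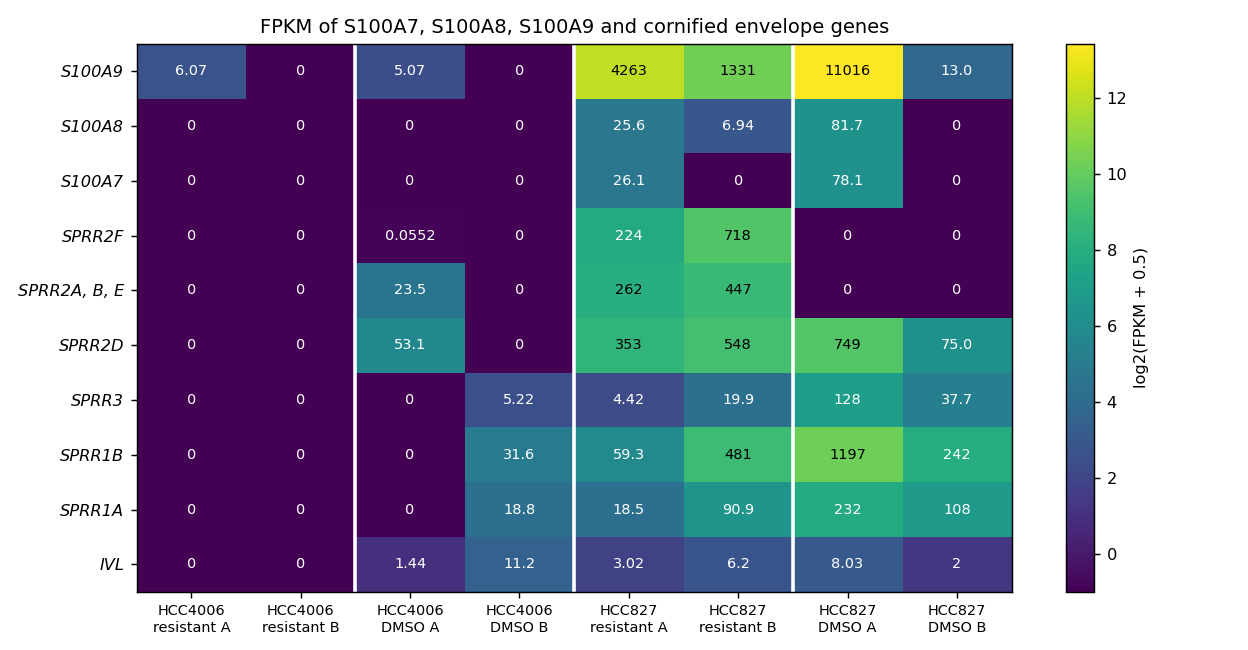
FPKM of S100A9, S100A8, S100A7 and cornified envelope genes in each library, with the value printed in each cell and colour on a log2(FPKM + 0.5) scale. The resistant HCC4006 libraries are at 0 but for S100A9 at 6.07 FPKM in library A, and in HCC827 DMSO library B is below library A in every gene above 0.

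Of 25 partner and receptor genes, 23 had rows. In HCC4006 21 were tested and limma called 2 higher and 2 lower, against 9.36% of all rows called. In HCC827 20 were tested and it called 4 higher and 0 lower, against 6.8% of all rows. Of all rows called in HCC827, 991 were higher and 323 lower. AGER, the receptor for several S100 proteins, measured 32.4 and 47.2 FPKM in resistant HCC4006, against 95.6 and 55.7 FPKM in DMSO HCC4006 (adjusted p = 0.301 by limma). Its HCC827 levels were 30.9 and 75.3 FPKM in resistant cells, against 66.0 and 44.3 FPKM in DMSO cells (adjusted p = 0.905). TLR4, the receptor of calprotectin, was called higher in resistant HCC4006, at 6.71 and 5.97 FPKM, and was listed at 0 in DMSO HCC4006 and in all HCC827 libraries. ANXA11, an annexin that binds S100A6, was called lower in HCC4006. It measured 816 and 1000 FPKM in resistant cells, against 2342 and 2227 FPKM in DMSO cells, a log2 change of −1.34 (SE 0.21, adjusted p = 0.0407 by limma), and it was not called over rows above 0 in every library (adjusted p = 0.111) or with any 1 library left out (0.0768 to 0.271), with 0.0317 to 0.124 in the other alternatives.

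The other called partners all had a group listed at 0. MYH10, a non-muscle myosin that S100A4 can bind, was listed at 0 in resistant HCC4006, against 63.1 and 65.7 FPKM in DMSO HCC4006. In resistant HCC827 MCAM, a surface receptor for S100A8/S100A9, measured 129 and 180 FPKM, the calcium-binding annexin gene ANXA6 measured 21.1 and 8.42 FPKM, and PLAU, the urokinase that activates plasminogen, measured 2358 and 3427 FPKM. All 3 were listed at 0 in both DMSO HCC827 libraries. Without either DMSO HCC827 library limma called 0 rows in that line, so each HCC827 call given here, those of S100PBP and the SPRR2 rows included, was lost. Among 31 other EF-hand genes found, limma called 2 higher and 1 lower of 24 tested in HCC4006, where 9.36% of all rows were called. In HCC827 it called 1 higher and 0 lower of 24 tested, where 6.8% of all rows were called. CALB2 and NUCB2 were listed at 0 in DMSO HCC4006 and CAPN1 in DMSO HCC827. LCP1, which encodes the actin-bundling L-plastin, measured 10.7 and 4.05 FPKM in resistant HCC4006, against 123 and 170 FPKM in DMSO HCC4006, a log2 change of −4.35 (SE 0.54, adjusted p = 0.0240 by limma). LCP1 was not called with any 1 library left out (0.106 to 0.175) or over rows above 0 in every library (0.0641). CALB2 was not called without either DMSO HCC4006 library (0.118 and 0.10), with a pseudocount of 1 (0.0517) or with both lines fitted together (0.342). Of 12 genes without an EF-hand that flank the S100 block, INTS3 alone was called, in HCC4006, at 167 and 250 FPKM in resistant cells and a listed 0 in DMSO cells.

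The genes with a fused S100 domain, which encode large structural proteins of skin, were at the edge of what was seen. Of 7, FLG, HRNR and TCHH were above 0 in HCC4006 and none in HCC827. Limma called 0 of 3 tested in HCC4006, against 9.36% of all rows, with 1 at an unadjusted p below 0.05.

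In resistant HCC827 and in DMSO HCC4006, most abundant S100 genes moved together between the libraries of the group. In resistant HCC827, library B exceeded library A by 3.68-fold for S100A2, 3.67-fold for S100A6, 2.59-fold for S100A10, 2.42-fold for S100A16 and 2.28-fold for S100A11. S100A14 differed by 1.02-fold there, and S100A9 was 3.20-fold lower in B. In DMSO HCC4006 B exceeded A by 2.89-fold for S100A2, 2.78-fold for S100A10, 2.50-fold for S100A16, 1.77-fold for S100A11 and 1.64-fold for S100A6, while S100A14 was 3.52-fold lower in B. In DMSO HCC827 the directions were mixed. S100A14 was 3.66-fold, S100A2 2.38-fold, S100A16 1.33-fold and S100A10 1.17-fold lower in B, while S100A11 was 1.31-fold and S100A6 1.06-fold higher. The resistant HCC4006 libraries differed by no more than 1.32-fold for S100A2, S100A6, S100A10, S100A11 and S100A16. The members' transcripts are short, with a median length per gene of 509 to 1279 bases in GENCODE release 29. Over genes of up to 700 bases the median log2 difference of B minus A in resistant HCC827 was 0.13, over those up to 1500 bases 0.28, over those up to 3000 bases −0.02 and over longer ones −0.48. In DMSO HCC4006 the same medians were 0.03, 0.06, 0.04 and −0.01. These S100 genes were named because they differed, so lying beyond the median of their length class is no test. Of the 9215 rows compared, 21% in DMSO HCC4006 and 19.2% in resistant HCC827 differed by more than 2-fold. The part of length or of these libraries in the results above was not tested.

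**Figure D4:**
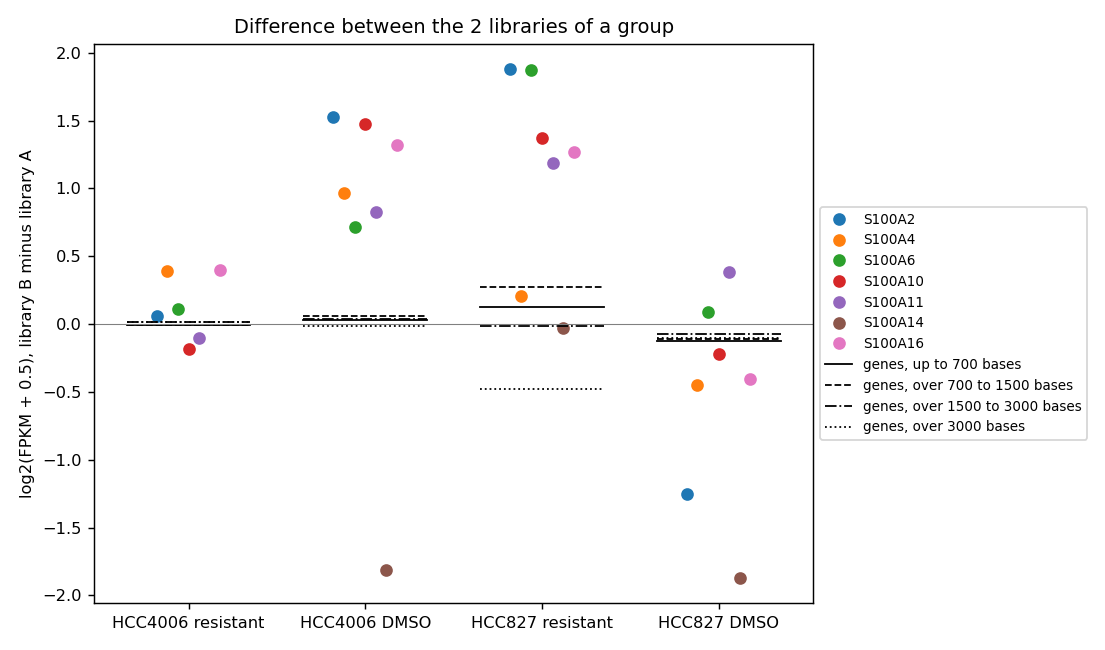
Library B minus library A of each group in log2(FPKM + 0.5), with points for 7 S100 genes where both libraries are above 0 (S100A8, S100A9 and S100P are not drawn) and black lines for the medians over all genes of 4 transcript length classes. S100A2, S100A6, S100A10, S100A11 and S100A16 lie above the medians in DMSO HCC4006 and in resistant HCC827.

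For the 6 genes above 0 in all 8 libraries, the rows of most like pattern were found among 12819 rows above 0 in all 8 libraries with a mean of at least 10 FPKM. Likeness was the root mean square difference of log2(FPKM + 0.5), centred within each line, over the 8 libraries. S100A11 was closest to NUP37 (0.0571), a nuclear pore gene, and MRPS15 (0.0779), a mitochondrial ribosome gene, where the median over rows was 0.559. S100A10 was closest to ANXA2P1 (0.0822), a pseudogene of its partner ANXA2, and to DUT (0.0894), against a median of 0.678. Reads of ANXA2 and of its processed copies can be shared, so the ANXA2P1 row is uncertain. S100A4 was closest to TBCD (0.0728) and PRCC (0.112), against a median of 0.526. S100A6 was closest to HES4 (0.188) and DPM3 (0.194), S100A16 to AC008763.1 (0.172) and ARHGDIB (0.179). S100A2 had the most distant neighbours, GDPD3 (0.436) and the joined row of CDH6 and RP11-152K4.1 (0.467), against a median of 1.29. These values describe 8 libraries, and the patterns include the differences between libraries of a group given above.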

How the data were processed

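The 8 libraries were polyadenylated RNA prepared, per the labels' protocols, with the unstranded TruSeq RNA v2 kit. The authors deposited FPKM per gene in 2 tables, 1 per line; hg19, TopHat 1.4.1, Cufflinks 1.3.0 and Cuffdiff are listed in the submitters' processing notes. Annotation, options and depth were not given in the sources used, so no counting error can be stated. The FPKM are above the usual range, so the authors may have scaled them further; such a factor would cancel in ratios taken within a table, apart from the pseudocount. Columns carry the letters A and B, which were not tied to the labels' replicate numbers. Per-sample columns that belong to no group numbered 0.

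A gene was the row whose name field holds its symbol, with the highest mean over the 8 columns where several did. Values were tested as log2(FPKM + 0.5), which understates changes of low genes, with limma 3.58.1 in R 4.3.3 (lmFit, eBayes with a trend) over rows with a mean of at least 0.5 FPKM. Each line was fitted alone on its 4 libraries, and the lines were compared by an interaction contrast over all 8. The Benjamini-Hochberg adjustment ran over every row of a fit. The fit was tested on simulated data. The simulation used only rows above 0 in every library of the line, so it does not cover rows with a listed 0, such as S100A14 in HCC4006. Alternatives were pseudocounts of 0.1 and 1, no filter or a mean of 2 FPKM, rows above 0 in every library, quantile and median scaling, a block on the column letter, no trend, summed rows, a joint fit, and each library left out. Other tables were handled with Python 3.11.15, pandas 2.3.3 and numpy 2.4.6.

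The members, gene lists and tests were chosen with earlier results of these data known. Of each list, called genes were named, up to the 6 of largest change per line, and S100A13, S100A1, ANXA2, ANXA1 and AGER always; for each gene above 0 in all libraries the 2 most similar rows were named.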

Additional observations from a re-analysis of the deposited data

Results flagged for a closer look

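The HCC827 change less the HCC4006 change was called by limma, with Benjamini-Hochberg adjustment over all rows, for 12.1% of all rows. Of the 10 S100 genes it was called for S100A14 alone (adjusted p = 0.00155 by limma). S100A14 was listed at 0 in resistant HCC4006 and at 1132 and 1107 FPKM in resistant HCC827. Among 6 other S100 genes tested it was called for S100A5 alone (0.00414 by limma). That value restates the HCC827 change, since S100A5 was listed at 0 in all HCC4006 libraries and was not tested there.

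Of 21 partners tested, the difference was called positive for 4 and negative for 1, against 12.1% of all rows called in either direction. They were ANXA11 (adjusted p = 0.0204 by limma, log2 change −1.34 in HCC4006 and 0.75 in HCC827), TLR4 (0.00397), MCAM (3.42e-05), MYH10 (0.000169) and PLAU (2.85e-05). TLR4, MCAM, MYH10 and PLAU each rest on a group listed at 0, and TLR4 was at 0 in all HCC827 libraries, so its value restates the HCC4006 change. The ANXA11 difference was not called over rows above 0 in every library (0.0651) or in 4 of the 8 fits with 1 library left out (up to 0.103).

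Of 8 cornified envelope rows tested, the difference was called for 2, against 12.1% of all rows. They were the row of SPRR2A, SPRR2B and SPRR2E (adjusted p = 0.0207 by limma) and SPRR2F (0.000492), both at 0 in DMSO HCC827. The first of these was not called in 6 of the 8 fits with 1 library left out (up to 0.127). SPRR2F was at 0.0552 FPKM or a listed 0 in HCC4006 and was not tested there, so its value largely restates the HCC827 change. Of 24 EF-hand genes tested, the difference was called positive for 3 and negative for 1, against 12.1% of all rows. They were CAPN1 (1.3e-05 by limma), NUCB2 (0.000109), LCP1 (0.0121) and SRI (0.0235). The SRI difference was not called over rows above 0 in every library (0.0797) or in 5 of the 8 fits with 1 library left out (up to 0.10), and that of LCP1 in 3 of the 8 (up to 0.0568). SRI measured 510 and 482 FPKM in resistant HCC4006, against 1058 and 866 FPKM in DMSO HCC4006, and 813 and 974 FPKM in resistant HCC827, against 458 and 604 FPKM in DMSO HCC827. Of 12 flanking genes tested, the difference was called for INTS3 alone (0.000106 by limma), against 12.1% of all rows. INTS3 was listed at 0 in DMSO HCC4006 and in all HCC827 libraries. It was not tested in HCC827, so the value restates its HCC4006 change.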

How the results depend on the processing

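Over rows above 0 in every library of a fit, limma called 88 of 16484 rows in HCC4006, 19 of 15917 in HCC827 and 212 of 14642 for the difference between the lines, against 1860, 1314 and 2501 over all rows. 0 S100 genes were among them in each fit, with 1, 1 and 0 at an unadjusted p below 0.05; S100A14 could not enter the HCC4006 and difference fits, which lack rows with a listed 0. Without DMSO HCC4006 library B more rows were called than with all libraries, both in HCC4006 and for the difference. Without either DMSO HCC827 library they numbered 0 in HCC827, with 2768 (A) and 2574 (B) rows at an unadjusted p below 0.05 by limma. They numbered 1666 for the difference without resistant HCC4006 library B. With one library left out, 0 to 2 S100 genes were called in HCC4006, 0 in HCC827 and 1 to 2 for the difference. In HCC4006 S100A14 was called with S100A2 (without DMSO library A) or with S100P (without DMSO library B). In the difference it was called with S100A6 (without resistant HCC827 library A). In the HCC4006 fits without a DMSO library S100A14 had no spread within a group, nor had S100P without library B. Those calls of S100A14 and S100P therefore do not weigh a change. Every fit with a library left out has 1 library in a group. Its calls, those of S100A2 and S100A6 included, lack the spread of that group.

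Signs turned for small changes. After quantile normalization, which moved the median log2 change of all rows to −0.19 in HCC4006 and −0.24 in HCC827, the log2 change in HCC4006 was −0.026 for S100A9 and 0.16 for S100A11. With libraries scaled to one median, S100A11 had 0.018 in HCC4006, 0.048 in HCC827 and 0.027 for the difference. With one library left out, the HCC4006 log2 change ranged from −0.0059 to 0.96 for S100A4, −1.74 to 1.98 for S100A9, −1.13 to 0.35 for S100A10, −0.44 to 0.39 for S100A11, −1.08 to 2.40 for S100A1, −1.15 to 0.19 for S100A13 and −0.94 to 0.38 for ANXA2. In HCC827 it ranged from −0.40 to 1.48 for S100A6, −2.56 to 4.80 for S100A8, −2.21 to 7.46 for S100A9, −1.17 to 0.20 for S100A10, −0.66 to 0.53 for S100A11, −0.44 to 0.83 for S100A16, −3.83 to 1.48 for S100A1, −1.52 to 0.38 for S100A13, −1.31 to 0.46 for ANXA2 and −0.80 to 0.47 for AGER. For the difference it ranged from −2.56 to 4.80 for S100A8, −2.33 to 7.34 for S100A9, −0.83 to 0.64 for S100A10 and −0.64 to 0.55 for S100A11. The cause was not tested.

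The column letters are in no label, so they were not taken as pairs; deviations of same-lettered libraries correlated at −0.08 in HCC4006 and 0.21 in HCC827 across rows, and whether they share a culture or day is unknown. With the replicate block on the letter, 1, 0 and 1 S100 genes were called in HCC4006, HCC827 and the difference, and 1400, 1485 and 2237 rows in all. In HCC4006 the block ended the calls of TLR4 (adjusted p = 0.0706 by limma), CALB2 (0.0756) and ANXA11 (0.124). The other alternatives kept these counts of 1, 0 and 1, summed rows by construction, as each symbol had 1 row. Depth sets an unknown limit, since the files hold no counts.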
